A study of Mus musculus with 12 samples.

Results

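Islets isolated 5 days after diphtheria toxin (labelled DT 5 DPA, read here as days post-ablation) were compared with islets of untreated mice (CTRL) across all expressed genes. The groups hold 3 libraries each, taken by their labels, so 6 of the 12 libraries of the series enter the comparison. All 12 came from pancreatic islets of female mice with the genotype NSG RIP-DTR Htz. NSG is an immunodeficient strain without mature lymphocytes, and in RIP-DTR mice the rat insulin promoter drives the receptor for diphtheria toxin, so that the toxin acts on insulin-expressing cells. The controls carried the same transgene and their treatment is given as none, so an effect of the toxin outside beta cells and the loss of beta cells cannot be told apart. The other 6 libraries, 3 at 1 DPA and 3 at 3 DPA, served as the measure of the spread and for the tests between times. The series design calls the ablation partial and asks for the molecular response to it. Ages, toxin dose and the number of mice behind a library were not given in the sources used here.

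Beta cells are the insulin-secreting majority of a mouse islet and divide rarely in the adult. A cell that re-enters the cycle first makes the DNA replication machinery under E2F control, and later the cyclins, kinases and spindle proteins of G2 and mitosis. Many promoters of the second set carry a cell cycle homology region (CHR), the element through which the DREAM and MMB-FOXM1 complexes repress the gene in resting cells and activate it before division. Islets also hold alpha, delta and PP cells, endothelium, pericytes, macrophages and, at the rim, Schwann cells.

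Total counts were 38700773 to 45571879 per CTRL library and 35354631 to 50012558 per 5 DPA library. The table lists 48709 genes, and 17294 passed the filter on low counts and were tested. The labelled tissue was checked by its defining markers: the insulin genes Ins1 and Ins2 made up 17.2% ± 1.40 of all counts in CTRL and 16.5% ± 2.75 at 5 DPA (mean ± SD, n = 3 each; two-sided exact permutation p = 0.7). The groups overlapped. Acinar cell genes took 4.22% ± 2.93 of counts in CTRL and 1.99% ± 1.23 at 5 DPA (exact permutation p = 0.3). Genes of the mitochondrial genome took 2.48% ± 0.160 and 2.04% ± 0.0750, without overlap (exact permutation p = 0.1, which is the lowest p that 3 libraries against 3 can give). CTRL replicate 3 stood apart from the other controls, with the lowest macrophage and stromal marker levels. Of the 5 DPA libraries, replicate 1 was highest for mitosis, matrix and Schwann cell genes.

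At 5 DPA, 1477 genes differed from CTRL (8.54% of those tested; edgeR's quasi-likelihood test, Benjamini-Hochberg adjusted p under 0.05), and "rose", "fell" and "called" refer to this test throughout. Of these, 1016 rose (5.87%) and 461 fell (2.67%). The rises were larger than the falls. Among genes that rose, 640 changed by more than 2-fold and the median log2 fold change was 1.38, whereas 4 of the genes that fell changed by more than 2-fold and their median was -0.35. The 2 sets differ in level, with a median average log2 CPM of 2.55 for genes called higher and 6.39 for genes called lower. Of the 1016 rises, 399 averaged under 1 CPM in CTRL and 153 had 3 or fewer counts over the CTRL libraries. Genes that low in CTRL could rise but hardly fall, so the sizes of rises and falls are not directly comparable. Over all genes tested the median log2 fold change was 0.01. In every called gene the 3 libraries of one group lay above all 3 of the other. Without any call, all 5 DPA libraries lay above all CTRL libraries for 16.5% of genes and below them for 12.2%. These shares of all genes are the background for the list counts below. The count of called genes was 462 without 5 DPA replicate 1, 726 without CTRL replicate 2, 745 without CTRL replicate 3, 823 without 5 DPA replicate 3 and 2137 with CTRL replicate 1 left out. When the 50 most abundant genes were left out of the library sizes, 79.1% of 1384 calls were higher, against 68.8% of the 1477. In bulk tissue, more cells of a type and more RNA per cell cannot be told apart.

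**Figure D1:**
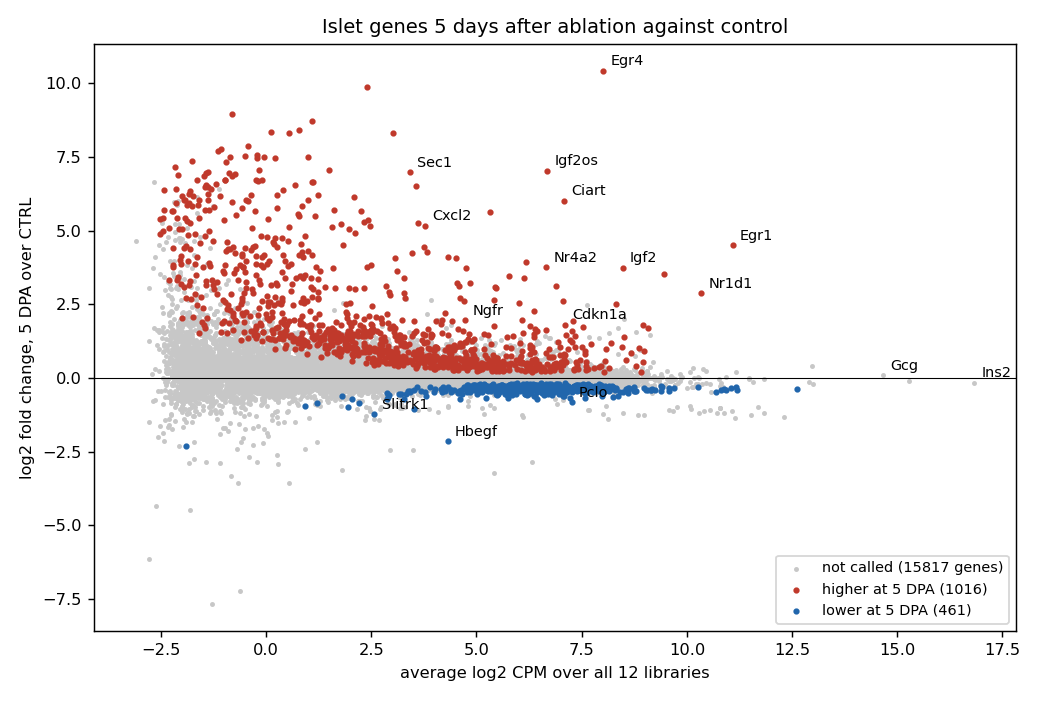
Each point is 1 of 17294 genes, placed by its average log2 CPM over all 12 libraries (x axis) and its log2 fold change at 5 DPA over CTRL (y axis), red if called higher, blue if called lower and grey if not called. The 1016 red points reach far up the axis, most steeply at low levels, while nearly all of the 461 blue points hug the zero line; fitted values of genes at 0 counts in CTRL depend on the prior count.

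Genes of G2 and mitosis had the highest share of rises among the 34 gene lists examined. Of 32 listed genes, 25 rose and none fell, and the 7 others (Mki67, Cenpf, Bub1b, Bub1, Mad2l1, Mybl2 and Aurka) were not called. Over all genes 5.87% rose. All 32 had every 5 DPA library above every CTRL library (16.5% of all genes did), and the median log2 fold change was 1.38, beside 0.01 over all genes. Promoter windows (250 bases before to 50 after the start, RefSeq on GRCm38.p6, the assembly of the mm10 build) were found for 27 of the 32. The CHR, searched as TTTGAA or TTCGAA on either strand, stood in the windows of 21 of these 27 genes (77.8%) and of 21.7% of all genes with a window, and of 16.7% of those tested. CCAAT, searched on either strand and independently, so that hits may share a base, stood in 77.8% and 41.1%. Both stood in 1 window in 70.4% of the 27 and 8.6% of all genes. A match of letters is a description and not evidence of binding. The windows of the 4 genes with the smallest p among those that rose and hold a CHR are printed below, 5′ to 3′ along the gene, since they show the shared element that the group is known for; capitals mark CHR letters. Prc1 lies at chr7:80294201-80294500 on the plus strand, Ube2c at chr2:164769679-164769978 on the plus strand, Kif23 at chr9:61946750-61947049 on the minus strand and Ccnb2 at chr9:70421505-70421804 on the minus strand (mm10).
Prc1: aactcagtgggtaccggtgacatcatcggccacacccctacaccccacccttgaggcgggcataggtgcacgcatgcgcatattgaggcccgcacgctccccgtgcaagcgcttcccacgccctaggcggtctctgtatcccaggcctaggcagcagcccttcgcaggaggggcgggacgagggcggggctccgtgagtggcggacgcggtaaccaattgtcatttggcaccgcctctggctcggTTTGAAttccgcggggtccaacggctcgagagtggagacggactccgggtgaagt
Ube2c: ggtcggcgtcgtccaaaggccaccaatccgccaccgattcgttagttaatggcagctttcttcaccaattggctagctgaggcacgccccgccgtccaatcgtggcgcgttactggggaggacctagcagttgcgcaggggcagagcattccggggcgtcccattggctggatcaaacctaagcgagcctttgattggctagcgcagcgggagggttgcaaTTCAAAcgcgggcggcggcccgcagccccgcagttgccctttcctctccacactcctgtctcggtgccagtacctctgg
Kif23: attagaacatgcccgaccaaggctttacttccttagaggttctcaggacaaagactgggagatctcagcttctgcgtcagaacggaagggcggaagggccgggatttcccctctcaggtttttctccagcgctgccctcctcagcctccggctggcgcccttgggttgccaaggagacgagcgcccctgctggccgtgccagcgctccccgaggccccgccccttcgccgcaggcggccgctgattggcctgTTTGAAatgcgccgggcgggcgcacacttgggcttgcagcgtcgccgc
Ccnb2: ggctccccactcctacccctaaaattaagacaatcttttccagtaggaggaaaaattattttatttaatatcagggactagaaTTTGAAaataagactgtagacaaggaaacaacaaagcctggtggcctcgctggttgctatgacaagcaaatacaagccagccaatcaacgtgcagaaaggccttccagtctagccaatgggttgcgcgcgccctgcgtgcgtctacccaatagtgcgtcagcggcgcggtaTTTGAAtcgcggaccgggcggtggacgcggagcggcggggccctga

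The genes behind these windows serve the end of mitosis and its timing. Prc1, which bundles the microtubules of the central spindle, had 5.09, 3.87 and 4.33 CPM (counts per 1000000 counts of the library after TMM scaling) in CTRL replicates 1 to 3 and 16.6, 8.77 and 9.16 at 5 DPA (log2 fold change 1.38 ± 0.23 SE, edgeR adjusted p = 0.00518). Kif23, a kinesin of the same structure, had 1.48, 1.801 and 1.18 CPM and 5.795, 3.57 and 3.67 CPM (log2 fold change 1.55 ± 0.27 SE, edgeR adjusted p = 0.00662). In both genes every 5 DPA library lay above every CTRL library, and 5 DPA replicate 1 was the highest. Ube2c, the ubiquitin-conjugating enzyme that works with the anaphase-promoting complex, had 3.07, 2.14 and 1.996 CPM in CTRL and 11.1, 5.28 and 5.904 at 5 DPA (log2 fold change 1.63 ± 0.28 SE, edgeR adjusted p = 0.00662). Ccnb2, cyclin B2, had 2.24, 0.936 and 1.31 CPM and 5.93, 3.77 and 3.81 CPM (log2 fold change 1.595 ± 0.31 SE, edgeR adjusted p = 0.0117). The call of Ccnb2 ended without 5 DPA replicate 1 (edgeR adjusted p = 0.0552). Prc1 overlaps Rccd1 on the opposite strand, which averaged 14.2 CPM in CTRL and 21.9 at 5 DPA, and Ube2c overlaps Tnnc2; whether the counting used strand is unknown, so such reads cannot be told apart.

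Kinases and cyclins of mitosis rose in part; the kinase genes Aurka, Bub1 and Bub1b were among those not called. Cdk1, the kinase that drives entry into mitosis, had 2.703, 2.35 and 1.95 CPM in CTRL and 9.48, 5.16 and 5.63 at 5 DPA (log2 fold change 1.53 ± 0.33 SE, edgeR adjusted p = 0.0184). Its partner Ccnb1, cyclin B1, had 2.47, 1.87 and 1.42 CPM and 8.82, 4.58 and 3.94 CPM (log2 fold change 1.59 ± 0.35 SE, edgeR adjusted p = 0.01902). Plk1, a kinase of spindle assembly, had 2.001, 2.11 and 1.97 and 7.64, 4.01 and 4.11 CPM (log2 fold change 1.37 ± 0.28 SE, edgeR adjusted p = 0.01297). Foxm1, the transcription factor that activates many of these genes, went from 5.9, 4.54 and 5.77 CPM in CTRL to 14.4, 9.08 and 8.63 CPM (log2 fold change 0.99 ± 0.23 SE, edgeR adjusted p = 0.0232). No CTRL library reached the lowest 5 DPA library in any of these 4 genes. The call of Cdk1 ended when any 1 of CTRL replicates 2 and 3 and 5 DPA replicate 1 was left out (edgeR adjusted p 0.0594 to 0.0878). The call of Plk1 ended without 5 DPA replicate 1 (edgeR adjusted p = 0.0546). Foxm1 and Ccnb1 lost their calls without CTRL replicate 2, CTRL replicate 3 or 5 DPA replicate 1 (edgeR adjusted p 0.0501 to 0.108 for Foxm1).

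Top2a and Mki67 are the usual markers of cycling cells, for the DNA topoisomerase of dividing cells and the Ki-67 protein of mitotic chromosomes. Top2a had 11.2, 6.84 and 7.19 CPM in CTRL and 35.99, 15.7 and 20.03 at 5 DPA (log2 fold change 1.51 ± 0.33 SE, edgeR adjusted p = 0.0207). The call of Top2a ended when any 1 of CTRL replicates 2 and 3 and 5 DPA replicate 1 was left out (edgeR adjusted p 0.0648 to 0.0793). Mki67 had 12.3, 8.16 and 8.69 CPM in CTRL and 33.8, 16.4 and 16.99 at 5 DPA, without overlap, and missed the threshold (log2 fold change 1.21 ± 0.34 SE, edgeR adjusted p = 0.0558). Nusap1, a microtubule-binding protein of the spindle, had 2.65, 2.02 and 2.26 and 9.75, 5.39 and 6.57 CPM (log2 fold change 1.65 ± 0.25 SE, edgeR adjusted p = 0.00336), and its call held in all 22 other settings. Nusap1 overlaps Oip5 on the opposite strand, at 0.447 CPM in CTRL and 1.503 at 5 DPA. Replicate 1 was the highest of the 5 DPA libraries in each of these genes of G2 and mitosis.

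The group count rested on several libraries. It was 6 of 32 without 5 DPA replicate 1, 8 without CTRL replicate 2, 9 without CTRL replicate 3 and 3 when only the 2 groups compared were fitted, and the sign of the list median stayed positive. Marker scores of other cells were also compared. Among the 5 DPA libraries, replicate 1 was highest for mitosis genes and for stromal markers. Replicates 1 and 2 had nearly equal macrophage scores, and by summed CPM replicate 2 was the lower (896 against 928). The stromal scores of the groups overlapped. Macrophage marker scores (mean log2 CPM of 16 genes) were 4.97, 4.49 and 2.91 in the CTRL libraries and 5.19, 5.21 and 5.78 at 5 DPA, and stromal and pericyte scores (14 genes) were 5.70, 5.02 and 3.74 in the CTRL libraries and 5.80, 5.36 and 5.59 at 5 DPA. A fit with the macrophage score as a covariate called 1 of the 32 mitosis genes, and one with the stromal score called 4; the macrophage scores of the groups do not overlap, so that score and the treatment cannot be told apart. Which cells carried the mitosis transcripts was not tested.

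**Figure D2:**
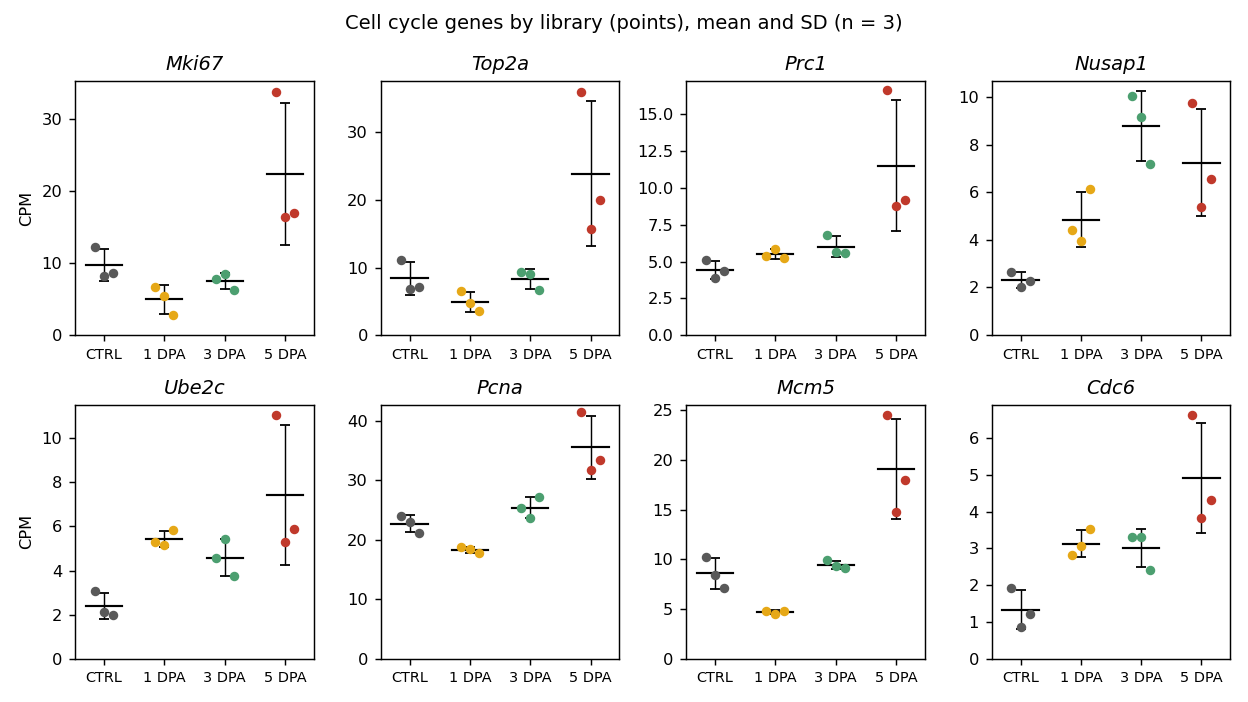
CPM (y axis, linear, from 0) of 8 cell cycle genes in each library of the 4 groups (x axis); points are libraries, bars the mean and SD (n = 3). For 7 of the 8 genes the 5 DPA mean is the highest of the 4 groups, with replicate 1 on top; Nusap1 is the exception, with a higher mean at 3 DPA.

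DNA replication genes rose as well, by smaller folds. Of 26 G1/S genes, 15 rose (5.87% of all genes did) and none fell (median log2 fold change 0.66). In 22 of them all 5 DPA libraries lay above all CTRL libraries, as in 16.5% of all genes. Mcm5, a subunit of the replicative helicase, had 10.2, 8.43 and 7.14 CPM in CTRL and 24.6, 14.8 and 18.01 at 5 DPA (log2 fold change 1.15 ± 0.18 SE, edgeR adjusted p = 0.00382). Pcna, the sliding clamp of DNA polymerases, had 24.04, 22.9 and 21.2 and 41.5, 31.7 and 33.4 CPM (log2 fold change 0.65 ± 0.10 SE, edgeR adjusted p = 0.00411). Neither group reached the other in these genes. Cdc6, which loads the helicase at origins, had 1.92, 0.864 and 1.22 and 6.61, 3.83 and 4.303 CPM (log2 fold change 1.88 ± 0.30 SE, edgeR adjusted p = 0.00461). Pole, the catalytic subunit of the leading-strand polymerase, had 3.51, 2.497 and 2.91 and 9.67, 5.95 and 6.07 CPM (log2 fold change 1.28 ± 0.24 SE, edgeR adjusted p = 0.00892). Mcm2, Mcm3, Mcm4, Mcm6, Mcm7 and Mcm10, Rrm2 (the ribonucleotide reductase subunit that limits nucleotide supply), Tk1, Cdt1, Slbp and Pola1 also rose, by 0.30 to 1.53 on the log2 scale. The list count was 5 without 5 DPA replicate 1 and 8 without CTRL replicate 2 or without CTRL replicate 3. It was 0 with the macrophage covariate and 5 with the stromal one.

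Replication-dependent histone genes, which pack new DNA and whose messages normally end in a stem-loop without a poly(A) tail, were barely counted in CTRL. Of 12 listed genes 11 were tested and 7 rose (median log2 fold change 2.25); Hist1h1a was too low to test. Genes so low in CTRL passed the filter through other groups, so the share that rose is no support. Hist1h3b had 0.05198, 0.07202 and 0.0444 CPM in CTRL and 2.58, 2.46 and 1.903 at 5 DPA (log2 fold change 5.30 ± 0.36 SE, edgeR adjusted p = 3.12e-05). Hist1h2ac had 0.234, 0.192 and 0.222 and 1.16, 1.61 and 1.13 CPM (log2 fold change 2.58 ± 0.34 SE, edgeR adjusted p = 0.001802). All 3 libraries of each group stayed close together in both. Hist1h2ak had 1 count over the 3 CTRL libraries and 101 over the 5 DPA libraries; the ratio after scaling was 90.8 (95% interval 15.9 to 3621, counting error only). These histone genes are near-identical in sequence, so reads may have been split between copies. Summed, the list averaged 5.90 CPM in CTRL, 36.7 at 1 DPA, 31.4 at 3 DPA and 14.1 at 5 DPA. Against 1 DPA, 7 of the 11 were lower at 5 DPA (29.8% of all genes were) and none higher. Of the 11, 3 were lower at 5 than at 3 DPA (2.46% of all genes were) and none higher, among them Hist1h3b (log2 fold change -1.54 ± 0.23 SE, edgeR adjusted p = 0.0116) and Hist1h2ac (-1.52 ± 0.29 SE, edgeR adjusted p = 0.0231); 2 were lower with the replicate number as a block.

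The list of D cyclins, their kinases and inhibitors also holds Rb1, Rbl1, Rbl2 and Men1. Of its 16 genes 1 was called, a share near the 8.54% of all genes called. That gene was Cdkn1a, which encodes the inhibitor p21 (chromosome 17, 29090976 to 29100727, plus strand, mm10), with 41.8, 42.2 and 28.3 CPM in CTRL and 114, 131 and 149 at 5 DPA (log2 fold change 1.81 ± 0.26 SE, edgeR adjusted p = 0.00413); the call held in all 22 other settings. Ccnd2, the main D cyclin of islets, had 883, 1049 and 952 and 818, 867 and 754 CPM (log2 fold change -0.24 ± 0.11 SE, edgeR adjusted p = 0.204). Ccnd1 (-0.03 ± 0.09), Cdk4 (-0.08 ± 0.06) and Cdkn1b (-0.01 ± 0.07) had log2 fold changes near 0, with the SE given. Cdkn2a, the Ink4a/Arf inhibitor, had 1.85, 2.16 and 0.333 and 0.418, 0.555 and 2.92 CPM, with overlap (log2 fold change -0.17 ± 0.74 SE, edgeR adjusted p = 0.915).

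Cdkn1a is also a p53 target, and in that list 8 of 20 genes rose (5.87% of all genes did) and none fell (median log2 fold change 0.48). Bax, which opens mitochondria in cell death, had 51.1, 49.1 and 48.9 CPM in CTRL and 84.2, 91.3 and 93.4 at 5 DPA (log2 fold change 0.85 ± 0.14 SE, edgeR adjusted p = 0.00557). Aen, an apoptosis-enhancing nuclease, had 34.1, 35.6 and 31.7 and 50.96, 48.97 and 57.5 CPM (log2 fold change 0.63 ± 0.09 SE, edgeR adjusted p = 0.001997). The 3 libraries of each group lay close together. Eda2r, a death receptor of the TNF receptor family, rose (log2 fold change 0.95 ± 0.18 SE, edgeR adjusted p = 0.00933), as did Ccng1, Plk2, Plk3 and Tnfrsf10b, by 0.44 to 0.79 on the log2 scale. The other 12 members were not called, with log2 fold changes from -0.21 (Perp) to 0.85 (Gdf15). They include Mdm2 (0.11) and Bbc3 (0.09). At 5 DPA the level was below that of 3 DPA for 5 members by edgeR (2.46% of all genes were lower). Among them were Cdkn1a (-1.12 ± 0.25 SE, edgeR adjusted p = 0.04296), Bax (-0.80 ± 0.14 SE, edgeR adjusted p = 0.0184) and Aen (-0.67 ± 0.09 SE, edgeR adjusted p = 0.00494). With the replicate number as a block Cdkn1a was not called between these times (adjusted p = 0.0921). The list count against CTRL was 4 without CTRL replicate 3 or without 5 DPA replicate 1, and 5 without 5 DPA replicate 2 or 5 DPA replicate 3.

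Growth factors changed in a few members, Igf2 by the most. Of 23 growth factor and receptor genes tested, 4 rose and 2 fell, beside 5.87% and 2.67% of all genes. Ereg was too low to test. Igf2, a fetal growth factor of the insulin family (chromosome 7, 142650766 to 142666816, minus strand, mm10), had 15.2, 12.8 and 10.1 CPM in CTRL and 157, 189 and 163 at 5 DPA (log2 fold change 3.74 ± 0.36 SE, edgeR adjusted p = 6.40e-04), a 13.4-fold rise. Its antisense transcript Igf2os (chromosome 7, 142659693 to 142670356, plus strand) had 0.312, 0.384 and 0.333 and 44.7, 49.1 and 42.2 CPM (log2 fold change 7.03 ± 0.51 SE, edgeR adjusted p = 2.45e-04). The genes overlap on opposite strands, so their reads cannot be told apart with strand use unknown. Both calls held in all 22 other settings. The level of Igf2 was lower than at 1 DPA (log2 fold change -2.35 ± 0.33 SE, edgeR adjusted p = 2.47e-04).

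Btc, betacellulin, an EGF receptor ligand, had 2.18, 1.25 and 0.798 CPM in CTRL and 9.69, 4.48 and 4.58 at 5 DPA (log2 fold change 2.16 ± 0.37 SE, edgeR adjusted p = 0.00679). Igfbp7, an IGF-binding protein of vessel walls, and Il34, a ligand of the macrophage CSF1 receptor, rose by 0.54 and 0.95 on the log2 scale. The call of Igfbp7 ended when any 1 library other than CTRL replicate 1, 1 DPA replicate 1, 3 DPA replicates 2 and 3 and 5 DPA replicate 2 was left out (edgeR adjusted p 0.0509 to 0.138). The call of Il34 ended when any 1 of CTRL replicates 2 and 3 and 5 DPA replicates 1 and 3 was left out (edgeR adjusted p 0.0635 to 0.14). Hbegf, another EGF receptor ligand and in other species the natural receptor of diphtheria toxin (chromosome 18, 36504927 to 36515805, minus strand), had 17.4, 53.2 and 70.9 CPM in CTRL and 10.2, 11.8 and 10.04 at 5 DPA (log2 fold change -2.14 ± 0.41 SE, edgeR adjusted p = 0.0145). The CTRL libraries spread widely and the 5 DPA libraries did not. The call of Hbegf ended when any 1 of 5 DPA replicates 1 and 3 was left out (edgeR adjusted p 0.0529 to 0.0699). Whether reads of the receptor transgene were counted as Hbegf was not tested. Insr, the insulin receptor, went from 69.1, 73.9 and 75.3 to 59.8, 60.7 and 62.5 CPM (log2 fold change -0.25 ± 0.06 SE, edgeR adjusted p = 0.0189). The call of Insr ended when any 1 of CTRL replicate 3 and 5 DPA replicates 1 and 2 was left out (edgeR adjusted p 0.0555 to 0.08804). Of the growth factor list, 2 rose when CTRL replicate 2 or 3 or 5 DPA replicate 1 or 3 was left out, and 0 fell without 5 DPA replicate 1 and 1 without 5 DPA replicate 2 or 5 DPA replicate 3. Of 10 tested genes of prolactin and serotonin signalling, which drive beta cell growth in pregnancy, 1 rose: Tph2, a serotonin-making enzyme, had 1.12, 1.44 and 2.04 and 5.57, 5.59 and 2.84 CPM (log2 fold change 1.605 ± 0.34 SE, edgeR adjusted p = 0.0164). The call of Tph2 ended when any 1 of CTRL replicate 2 and 5 DPA replicate 1 was left out (edgeR adjusted p 0.0629 to 0.0696). A count of 1 in 10 is near the 8.54% of all genes called. The median log2 fold change of these 10 genes was -0.07, with 5 above 0. Tph1 (0.79) and the prolactin receptor gene Prlr (-0.24) were not called.

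Immediate early genes, which are switched on within minutes of a stimulus, rose in most members. Of 18 listed genes 11 rose (5.87% of all genes did) and none fell (median log2 fold change 1.77). In 15 of them all 5 DPA libraries lay above all CTRL libraries, as in 16.5% of all genes. Egr4 had 0.182, 0.12 and 0.155 CPM in CTRL and 205, 249 and 183 at 5 DPA (log2 fold change 10.42 ± 0.52 SE, edgeR adjusted p = 3.12e-05). Its relative Egr1 had 157, 55.6 and 82.8 and 2422, 2593 and 1655 CPM (log2 fold change 4.50 ± 0.43 SE, edgeR adjusted p = 6.27e-04). The orphan nuclear receptor Nr4a2 had 5.198, 5.402 and 2.62 and 50.4, 61.4 and 65.7 CPM (log2 fold change 3.75 ± 0.31 SE, edgeR adjusted p = 3.19e-04). In these 3 genes the calls held in all 22 other settings and the groups stood far apart. Nr4a1 had 48.7, 28.95 and 15.9 and 316, 360.2 and 414 CPM (log2 fold change 3.54 ± 0.40 SE, edgeR adjusted p = 0.00159), and Jun, a subunit of AP-1, had 214, 131 and 161 and 588, 576 and 473 CPM (log2 fold change 1.69 ± 0.22 SE, edgeR adjusted p = 0.00226). Fosb, another AP-1 subunit, had 47.1, 4.11 and 7.47 and 91.1, 119.95 and 111 CPM and missed the threshold (log2 fold change 2.47 ± 0.78 SE, edgeR adjusted p = 0.0879), with CTRL replicate 1 far above the other controls. CTRL replicate 1 was also the highest control for Egr1, Nr4a1, Jun, Junb, Atf3, Ier2 and Nr4a3.

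Against 3 DPA, 6 of the 18 were lower at 5 DPA and none higher (2.46% and 0.705% of all genes), including Egr4 (-1.90 ± 0.31 SE, edgeR adjusted p = 0.0193) and Nr4a2 (-1.30 ± 0.27 SE, edgeR adjusted p = 0.0347); with the replicate number as a block Nr4a2 was not called between these times (adjusted p = 0.0686). Against 1 DPA, 5 were higher (Jun, Egr1, Egr4, Atf3 and Arc) and 3 lower (Fosl2, Nr4a1 and Nr4a2), shares near or below those of all genes (26.3% higher and 29.8% lower). The count against CTRL was 6 without 5 DPA replicate 1 and 7 without CTRL replicate 2. It was 5 with the macrophage covariate, 7 with the stromal one and 5 when only the 2 groups were fitted.

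**Figure D3:**
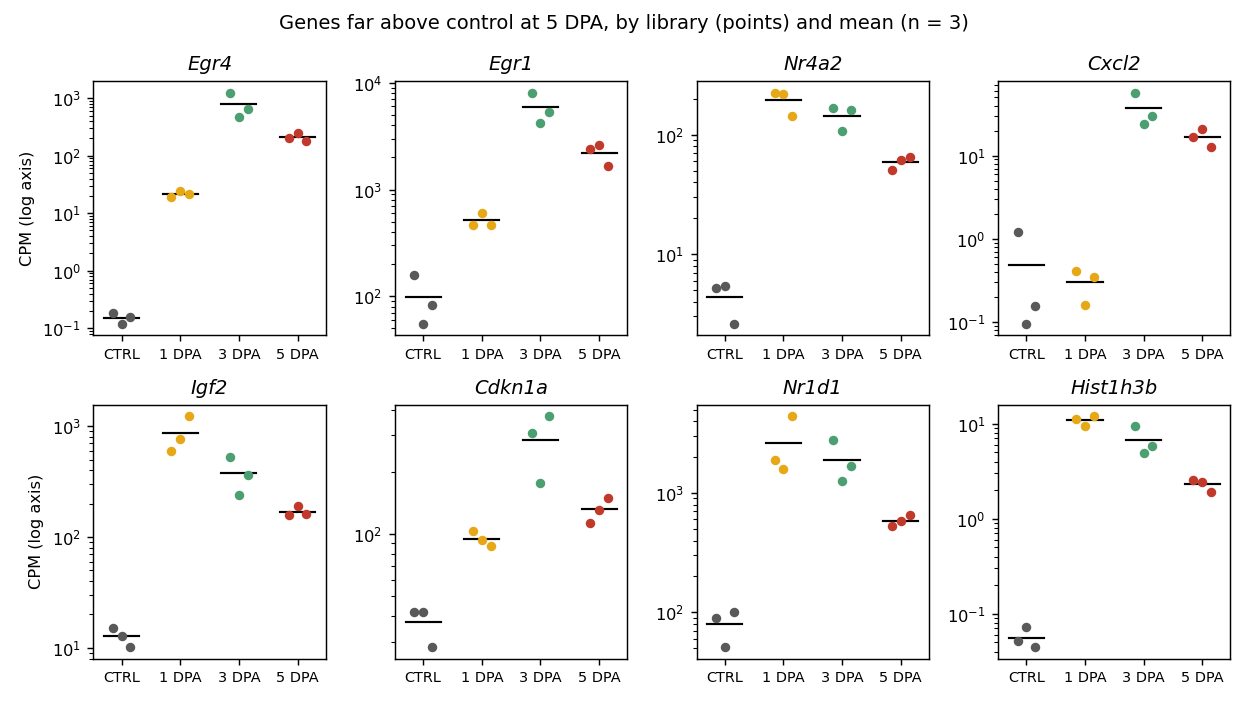
CPM on a logarithmic y axis for 8 genes far above control at 5 DPA, in each library of the 4 groups (x axis); points are libraries and lines the mean (n = 3). In all 8 the 5 DPA points lie above every CTRL point, and in each at least 1 earlier group has a higher mean than 5 DPA.

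Clock genes rose in part. Of 17 listed genes 6 rose (5.87% of all genes did) and none fell (median log2 fold change 0.87). Nr1d1, the repressor REV-ERB alpha, had 89.5, 51.04 and 100.2 CPM in CTRL and 526, 586 and 649 at 5 DPA (log2 fold change 2.87 ± 0.46 SE, edgeR adjusted p = 0.00751). Ciart, a circadian repressor, had 1.196, 0.576 and 1.49 and 70.4, 77.9 and 64.3 CPM (log2 fold change 6.02 ± 0.97 SE, edgeR adjusted p = 0.00918), and Hlf, a PAR bZIP output factor, had 6.16, 7.08 and 10.6 and 38.9, 37.9 and 39.4 CPM (log2 fold change 2.28 ± 0.39 SE, edgeR adjusted p = 0.0107). The 5 DPA libraries were closely spaced in each. Ciart was not called with limma-voom or with the macrophage or the stromal score as a covariate (adjusted p up to 0.143). Nfil3, a repressor that peaks in the opposite phase to Hlf, also rose, from 19.5, 23.3 and 20.98 to 31.6, 39.7 and 45.5 CPM (log2 fold change 0.87 ± 0.16 SE, edgeR adjusted p = 0.0106). Nr1d2 (1.17 ± 0.24) and Per1 (1.40 ± 0.36) were called higher. The call of Nr1d2 ended when any 1 of CTRL replicate 2 and 5 DPA replicate 1 was left out (edgeR adjusted p 0.0634 to 0.0666). The call of Per1 ended when any 1 library other than CTRL replicate 2, 1 DPA replicate 3 and 3 DPA replicates 1 and 2 was left out (edgeR adjusted p 0.0597 to 0.14). Nr1d1 overlaps Thra and Ciart overlaps C920021L13Rik on the opposite strand, the latter at 0.543 CPM in CTRL and 11.8 at 5 DPA. Clock hour at collection is not given in the sources used here, and its part was not tested. Between 5 and 1 DPA 16 of the 17 were lower at 5 DPA (29.8% of all genes were).

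Beta cell identity genes were lower by small amounts, and 6 were called. Of 18 genes 6 fell (2.67% of all genes did) and none rose, all 18 log2 fold changes were below 0, and the median was -0.21. Glp1r, the receptor of the incretin GLP-1, had 183, 217 and 219 CPM in CTRL and 106, 142 and 137 at 5 DPA (log2 fold change -0.69 ± 0.11 SE, edgeR adjusted p = 0.00474). Ucn3, urocortin 3, a peptide of mature beta cells, had 391, 473 and 443 and 251, 317 and 293 CPM (log2 fold change -0.60 ± 0.12 SE, edgeR adjusted p = 0.0139). Pdx1, the transcription factor that maintains beta cells, had 227, 198 and 253 and 155, 187 and 156 CPM (log2 fold change -0.45 ± 0.11 SE, edgeR adjusted p = 0.0327). The gene of the glucose transporter GLUT2, Slc2a2, had 951, 1028 and 1137 and 681, 881 and 759 CPM (log2 fold change -0.42 ± 0.12 SE, edgeR adjusted p = 0.0451). The groups did not overlap in these genes, but the lowest control lay close to the highest 5 DPA library for Pdx1 and Slc2a2. Nkx6-1 and the granule zinc transporter gene Slc30a8 fell by 0.43 and 0.41 on the log2 scale.

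The insulin genes themselves were not called. Ins2 had 123654, 126594 and 137068 CPM in CTRL and 102415, 141936 and 102547 at 5 DPA (log2 fold change -0.16 ± 0.16 SE, edgeR adjusted p = 0.601), and Ins1 had 46445, 45243 and 52424 and 40053, 53356 and 40944 CPM (log2 fold change -0.10 ± 0.18 SE, edgeR adjusted p = 0.781), with 5 DPA replicate 2 above every control in both. Reads of these near-identical genes may have been split between them. Mafa, a transcription factor of mature beta cells, had 602, 549.5 and 751 and 511, 571 and 441 CPM, with overlap (log2 fold change -0.32 ± 0.16 SE, edgeR adjusted p = 0.232). The list count was 1 without 5 DPA replicate 1, 2 without replicate 3 of the CTRL, 5 DPA or 3 DPA group, 3 without CTRL replicate 2 or 1 DPA replicate 2, and 2 with library sizes without the 50 most abundant genes. The call of Ucn3 ended without 5 DPA replicate 1 (edgeR adjusted p = 0.0673). The call of Pdx1 ended when any 1 of CTRL replicate 3, 1 DPA replicate 2, 3 DPA replicate 3 and 5 DPA replicates 1 and 3 was left out (edgeR adjusted p 0.0502 to 0.1395). The call of Slc2a2 ended when any 1 of CTRL replicates 2 and 3, 1 DPA replicate 2, 3 DPA replicate 3 and 5 DPA replicates 1 and 3 was left out (edgeR adjusted p 0.06198 to 0.182). The call of Nkx6-1 ended when any 1 library other than CTRL replicate 1, 1 DPA replicate 3, 3 DPA replicate 1 and 5 DPA replicate 2 was left out (edgeR adjusted p 0.0504 to 0.192). The call of Slc30a8 ended when any 1 of CTRL replicates 2 and 3, 3 DPA replicate 3 and 5 DPA replicates 1 and 3 was left out (edgeR adjusted p 0.0519 to 0.143).

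The hormone genes of the other endocrine cells were not called either. Gcg, glucagon, had 19871, 24773 and 25654 CPM in CTRL and 32974, 22013 and 19731 at 5 DPA (log2 fold change 0.09 ± 0.24 SE, edgeR adjusted p = 0.861). Sst, somatostatin, had 5872, 7617 and 7032 and 9601, 9634 and 8153 CPM, without overlap but past no threshold (log2 fold change 0.42 ± 0.14 SE, edgeR adjusted p = 0.085). Ppy, pancreatic polypeptide, had 1488, 2102 and 3737 and 3038, 1692 and 3621 CPM (log2 fold change 0.19 ± 0.36 SE, edgeR adjusted p = 0.805). Of 10 alpha cell genes 8 had log2 fold changes above 0 (median 0.22, and -0.05 without 5 DPA replicate 1), none of them called. The 1 gene that fell was the amino acid transporter gene Slc7a2, from 473, 518 and 611 to 402, 411 and 368 CPM (log2 fold change -0.44 ± 0.12 SE, edgeR adjusted p = 0.0402). The call of Slc7a2 ended when any 1 of CTRL replicates 2 and 3, 3 DPA replicate 3 and 5 DPA replicates 1 to 3 was left out (edgeR adjusted p 0.0595 to 0.128). Among all genes tested, 2.67% fell. edgeR called 0 of 7 delta and PP cell genes (2 by the unadjusted p under 0.05, 1 by DESeq2, 0 by limma-voom). It called 0 of 14 genes that mark immature beta cells or that mature beta cells keep silent (8 by the unadjusted p under 0.05, 1 by DESeq2, 0 by limma-voom; by edgeR, 2 higher without 5 DPA replicate 2, 1 higher without 1 DPA replicate 1 or 3, and 1 lower without CTRL replicate 1); 13 of these had log2 fold changes above 0 (median 0.43).

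Cholesterol synthesis genes fell in a few members. Of 18 cholesterol synthesis genes 4 fell (2.67% of all genes did) and none rose (median log2 fold change -0.26). In 12 of them all 5 DPA libraries lay below all CTRL libraries, as in 12.2% of all genes. Insig1, which holds back the sterol sensor, had 87.5, 106 and 98.3 CPM in CTRL and 59.99, 69.9 and 67.04 at 5 DPA (log2 fold change -0.57 ± 0.09 SE, edgeR adjusted p = 0.00411). Srebf2, the transcription factor over the pathway, had 214, 231 and 225 and 162, 177 and 185 CPM (log2 fold change -0.36 ± 0.06 SE, edgeR adjusted p = 0.00727). The 4 calls of the list held without any 1 library, and each ended with the macrophage score as a covariate, as the count of 0 there shows. The count was 8 without CTRL replicate 1 and 9 without 1 DPA replicate 3.

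Of 22 genes of the unfolded protein and integrated stress responses, 3 rose: Ddit3 (CHOP) from 13.6, 13.3 and 14.3 to 21.4, 25.2 and 22.04 CPM (log2 fold change 0.74 ± 0.13 SE, edgeR adjusted p = 0.00707), Ppp1r15a, the phosphatase subunit that ends the response, from 51.2, 33.4 and 36.9 to 61.1, 64.7 and 58.4 CPM (log2 fold change 0.60 ± 0.15 SE, edgeR adjusted p = 0.0367), and Atf4 from 142, 189 and 157 to 196, 215 and 233 CPM (log2 fold change 0.40 ± 0.10 SE, edgeR adjusted p = 0.0326). The call of Ppp1r15a ended when any 1 library other than CTRL replicate 1 and 3 DPA replicates 1 and 2 was left out (edgeR adjusted p 0.0531 to 0.135). The call of Atf4 ended when any 1 of CTRL replicates 1 and 3, 3 DPA replicate 3 and 5 DPA replicates 1 to 3 was left out (edgeR adjusted p 0.0502 to 0.111). The count was 1 without replicate 3 of CTRL or of 3 DPA or any 1 of the 5 DPA libraries. The endoplasmic reticulum chaperones of the list were not called. Nor were Asns (-0.28), Atf5 (-0.16), Trib3 (0.05), Chac1 (0.18) and Psat1 (0.37), by log2 fold change. The median of the 22 was 0.006 and 11 lay above 0, while 5.87% of all genes rose. edgeR called 0 of 20 oxidative phosphorylation genes (1 by the unadjusted p under 0.05, 0 by DESeq2, 0 by limma-voom), with a median log2 fold change of 0.03. Of 20 cytosolic ribosomal protein genes 1 rose, Rps18, at 5.51, 5.86 and 6.74 and 9.25, 8.93 and 9.35 CPM (log2 fold change 0.60 ± 0.13 SE, edgeR adjusted p = 0.0158), a low level for such a gene; copies of near-identical sequence make it uncertain. The call of Rps18 ended when any 1 of CTRL replicate 2 and 5 DPA replicate 1 was left out (edgeR adjusted p 0.0564 to 0.0605).

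Macrophage genes rose in 2 members, and CTRL replicate 3 had the lowest score of the list. Over the 16 genes the median log2 fold change was 1.02, and 9 had all 5 DPA libraries above all CTRL libraries. Over all genes 5.87% rose and 16.5% had such a separation. Summed, the list took 192 to 811 CPM in CTRL and 896 to 1306 CPM at 5 DPA. Ms4a7, a membrane protein of resident macrophages, had 8.395, 7.42 and 3.86 CPM in CTRL and 17.2, 16.7 and 20.4 at 5 DPA (log2 fold change 1.46 ± 0.25 SE, edgeR adjusted p = 0.00593). Cx3cr1, the fractalkine receptor, had 26.9, 16.3 and 16.1 and 39.1, 37.9 and 44.7 CPM (log2 fold change 1.04 ± 0.20 SE, edgeR adjusted p = 0.0114). It overlaps Csrnp1 on the same strand, which averaged 9.89 CPM in CTRL and 38.7 at 5 DPA, so part of its reads cannot be told apart. The call of Cx3cr1 ended without CTRL replicate 2 (edgeR adjusted p = 0.0558). Cd68, a lysosomal glycoprotein of macrophages, had 23.2, 13.1 and 3.64 and 54.5, 37.5 and 47.7 CPM and was not called (log2 fold change 1.81 ± 0.52 SE, edgeR adjusted p = 0.0614). The count of 2 was 6 without CTRL replicate 1 and 1 without CTRL replicate 2.

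Of 16 genes of phagocyte lipid handling and efferocytosis, the uptake of dead cells, 4 rose (5.87% of all genes did) and none fell. The median log2 fold change was 0.82, and 12 had log2 fold changes above 0. Cd5l (-0.88 ± 1.15) and Timd4 (-0.57 ± 0.99), genes of resident macrophages, had values below 0, as did Abca1 (-0.05 ± 0.13) and Lpl (-0.01 ± 0.09), each with the SE given, and none of these 4 was called. Trem2, a lipid receptor of phagocytes, had 7.304, 3.99 and 4.303 CPM in CTRL and 23.8, 18.7 and 18.5 at 5 DPA (log2 fold change 1.97 ± 0.30 SE, edgeR adjusted p = 0.004395). Ctsd, the lysosomal protease cathepsin D, had 498, 414 and 284 and 901, 725 and 807 CPM (log2 fold change 1.02 ± 0.18 SE, edgeR adjusted p = 0.00775). Lgals3, galectin 3, had 15.98, 7.66 and 2.35 and 54.1, 28.1 and 35.8 CPM (log2 fold change 2.19 ± 0.57 SE, edgeR adjusted p = 0.0472), and Axl, a receptor for dying cells, rose by 0.92 on the log2 scale. The call of Lgals3 ended when any 1 library other than CTRL replicate 1 was left out (edgeR adjusted p 0.0577 to 0.163). The call of Axl ended when any 1 library other than CTRL replicates 1 and 3 was left out (edgeR adjusted p 0.0603 to 0.149). The level at 5 DPA was above that at 3 DPA for Trem2 (1.27 ± 0.29 SE, edgeR adjusted p = 0.04296) and Ctsd (1.01 ± 0.18 SE, edgeR adjusted p = 0.0204), also with the replicate number as a block. The list count was 8 without CTRL replicate 1, 2 without CTRL replicate 2, and 2 without any 1 library of the 1, 3 or 5 DPA groups.

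Antigen presentation, complement and cytokine genes gave few calls, to be read beside the 5.87% of all genes that rose. Of 14 MHC class II and dendritic cell genes 2 rose: Itgax (CD11c) from 16.8, 8.26 and 5.501 to 38.1, 28.5 and 40.7 CPM (log2 fold change 1.82 ± 0.35 SE, edgeR adjusted p = 0.0135) and Zbtb46, a dendritic cell transcription factor, from 12.9, 10.03 and 7.47 to 17.9, 18.5 and 30.2 CPM (log2 fold change 1.13 ± 0.27 SE, edgeR adjusted p = 0.0301). The call of Itgax ended when any 1 of CTRL replicate 2 and 5 DPA replicate 1 was left out (edgeR adjusted p 0.0535 to 0.0617). The call of Zbtb46 ended when any 1 of CTRL replicates 2 and 3 and 5 DPA replicates 1 and 3 was left out (edgeR adjusted p 0.0544 to 0.0993). The count was 4 without CTRL replicate 1, 0 without CTRL replicate 2 or 5 DPA replicate 1, and 1 without CTRL replicate 3 or 5 DPA replicate 3. Of 10 complement genes 1 rose, the anaphylatoxin receptor gene C3ar1 (log2 fold change 1.57 ± 0.36 SE, edgeR adjusted p = 0.0236). The call of C3ar1 ended when any 1 of CTRL replicates 2 and 3 and 5 DPA replicates 1 and 3 was left out (edgeR adjusted p 0.0528 to 0.0922). The neutrophil-attracting chemokine Cxcl2 had 1.196, 0.09603 and 0.155 CPM in CTRL and 16.97, 20.8 and 12.7 at 5 DPA (log2 fold change 5.17 ± 0.71 SE, edgeR adjusted p = 0.00419), and Cxcl1 had 2.81, 0.336 and 0.488 and 21.2, 24 and 16.03 CPM (log2 fold change 4.11 ± 0.67 SE, edgeR adjusted p = 0.00854). CTRL replicate 1 was the highest control in both. With Nfkbia, the feedback inhibitor of NF-kB (log2 fold change 1.23 ± 0.27 SE, edgeR adjusted p = 0.0252), they made 3 of 20 genes of the chemokine list that rose, a count of 8 without CTRL replicate 1. The call of Nfkbia ended when any 1 of CTRL replicate 2 and 5 DPA replicates 1 to 3 was left out (edgeR adjusted p 0.0555 to 0.0733).

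Interferon response genes gave 2 rises of 20, the chemokine Cxcl10 from 8.81, 5.88 and 0.909 to 40.3, 49.6 and 42.5 CPM (log2 fold change 3.10 ± 0.66 SE, edgeR adjusted p = 0.0243) and the RNA sensor Ddx58 (log2 fold change 0.38 ± 0.11 SE, edgeR adjusted p = 0.04704). The call of Cxcl10 ended when any 1 of CTRL replicate 2 and 5 DPA replicates 1 to 3 was left out (edgeR adjusted p 0.0555 to 0.07297). The call of Ddx58 ended when any 1 library other than CTRL replicate 1 and 5 DPA replicate 2 was left out (edgeR adjusted p 0.0633 to 0.157). The count was 5 without CTRL replicate 1, 0 when CTRL replicate 2 or 5 DPA replicate 1 or 3 was left out, and 1 without any other library. Among all genes tested, 5.87% rose. edgeR called 0 of 5 tested monocyte and neutrophil genes (2 by the unadjusted p under 0.05, 2 by DESeq2, 1 by limma-voom; 3 of 6 by edgeR without CTRL replicate 1) and 0 of 5 tested lymphocyte genes (1 by the unadjusted p under 0.05, 1 by DESeq2, 0 by limma-voom; 1 lower by edgeR without CTRL replicate 1 or 5 DPA replicate 2). S100a8, S100a9, Ly6g and Retnlg, defining neutrophil genes, and Cd3e, Ms4a1 and Ncr1, defining T, B and NK cell genes, were too low to test, and Cd3e had 0 counts in all 6 libraries.

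Schwann cell genes had the highest share of rises among the 12 lists of cell type markers. Of 8 genes 5 rose (median log2 fold change 0.98) and 6 had all 5 DPA libraries above all CTRL libraries. Over all genes 5.87% rose and 16.5% had such a separation. Summed, the list took 63.3 to 84.6 CPM in CTRL and 127 to 192 CPM at 5 DPA. Ngfr, the low-affinity neurotrophin receptor of non-myelinating and repair Schwann cells, had 14.8, 11.9 and 12.7 CPM in CTRL and 70.2, 38.6 and 45.1 at 5 DPA (log2 fold change 1.97 ± 0.22 SE, edgeR adjusted p = 9.11e-04), a call that held in all 22 other settings. Gfap, an intermediate filament of the same cells, had 4.55, 5.79 and 3.93 and 15.2, 12.3 and 6.704 CPM (log2 fold change 1.26 ± 0.25 SE, edgeR adjusted p = 0.0122). Foxd3, a neural crest transcription factor, had 6.97, 8.64 and 4.86 and 20.4, 12.8 and 12.97 CPM (log2 fold change 1.17 ± 0.23 SE, edgeR adjusted p = 0.0113). Sox10, the lineage factor of Schwann cells, had 13.6, 12.7 and 9.58 and 30.3, 20.3 and 18.6 CPM (log2 fold change 0.95 ± 0.19 SE, edgeR adjusted p = 0.0141), and the cadherin gene Cdh19 rose by 1.02 on the log2 scale. The call of Gfap ended without 5 DPA replicate 1 (edgeR adjusted p = 0.0557). The call of Sox10 ended without 5 DPA replicate 1 (edgeR adjusted p = 0.0509). The call of Cdh19 ended when any 1 of CTRL replicates 2 and 3 and 5 DPA replicates 1 and 2 was left out (edgeR adjusted p 0.0538 to 0.119). S100b, a calcium-binding protein gene of the lineage, was not called. The count was 2 without 5 DPA replicate 1, and 1 with the macrophage or the stromal score as a covariate.

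Matrix genes rose in few members, although the signs agreed across the list. All 24 structural matrix genes had log2 fold changes above 0 (median 1.01), 18 had all 5 DPA libraries above all CTRL libraries, and 5 rose. Over all genes 16.5% had such a separation and 5.87% rose. Col5a2, a fibrillar collagen chain, had 59.2, 50.4 and 25.6 CPM in CTRL and 221, 129 and 113 at 5 DPA (log2 fold change 1.77 ± 0.34 SE, edgeR adjusted p = 0.0146). Col18a1, a basement membrane collagen, had 77.9, 50.7 and 29.4 and 235, 142 and 126 CPM (log2 fold change 1.67 ± 0.33 SE, edgeR adjusted p = 0.0174). CTRL replicate 3 was the lowest control and 5 DPA replicate 1 the highest library in both. Col15a1 rose (log2 fold change 0.80 ± 0.20 SE, edgeR adjusted p = 0.0367), as did Col4a2 and the matricellular protein gene Postn, by 0.62 and 1.598 on the log2 scale. The more abundant Col1a1 had 296, 256 and 63.9 and 1227, 644 and 601 CPM and missed the threshold (log2 fold change 2.01 ± 0.55 SE, edgeR adjusted p = 0.0561). The call of Col18a1 ended when any 1 of CTRL replicate 2 and 5 DPA replicate 1 was left out (edgeR adjusted p 0.0574 to 0.0649). The call of Col15a1 ended when any 1 library other than CTRL replicate 1, 3 DPA replicate 2 and 5 DPA replicate 3 was left out (edgeR adjusted p 0.0502 to 0.122). The call of Col4a2 ended when any 1 library other than CTRL replicate 1, 3 DPA replicate 2 and 5 DPA replicates 2 and 3 was left out (edgeR adjusted p 0.0551 to 0.125). The call of Postn ended when any 1 library other than CTRL replicates 1 and 3 was left out (edgeR adjusted p 0.0579 to 0.169). The list count was 17 with DESeq2 and 14 with limma-voom, 9 without CTRL replicate 1, 1 without CTRL replicate 2 or 5 DPA replicate 1, 2 without any 1 DPA library, 3 DPA replicate 1 or 3 DPA replicate 3, 3 without 5 DPA replicate 2, and 0 when only the 2 groups were fitted.

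Matrix remodelling genes gave 4 rises of 20 (5.87% of all genes rose). Mmp12, the macrophage elastase, had 3.25, 1.22 and 1.75 CPM in CTRL and 19.8, 8.07 and 6.12 at 5 DPA (log2 fold change 2.46 ± 0.51 SE, edgeR adjusted p = 0.0181). Mmp13, a collagenase, had 0.156, 0.168 and 0.0887 and 0.741, 0.972 and 0.386 CPM (log2 fold change 2.34 ± 0.45 SE, edgeR adjusted p = 0.0112). Plau, which encodes a plasminogen activator, rose by 1.11 on the log2 scale. The call of Mmp12 ended when any 1 of CTRL replicates 2 and 3 and 5 DPA replicate 1 was left out (edgeR adjusted p 0.0535 to 0.0693). The call of Plau ended when any 1 library other than CTRL replicate 1 was left out (edgeR adjusted p 0.0519 to 0.152). The count was 1 without CTRL replicate 3 or 5 DPA replicate 1, and 2 without CTRL replicate 2, 5 DPA replicate 2, 5 DPA replicate 3, 1 DPA replicate 1, 1 DPA replicate 3 or 3 DPA replicate 1.

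Of 14 stromal and pericyte genes 5 rose (5.87% of all genes did) and none fell. The median log2 fold change was 0.72, and 11 had log2 fold changes above 0. The contractile genes Acta2 (-1.21 ± 0.81), Tagln (-0.77 ± 0.75) and Des (-0.08 ± 0.50) had values below 0, with the SE given, and were not called. Mgp, matrix Gla protein, had 60.9, 51.6 and 24.4 CPM in CTRL and 181, 117 and 99.2 at 5 DPA (log2 fold change 1.54 ± 0.32 SE, edgeR adjusted p = 0.0205). Thy1, a fibroblast surface protein, had 24.7, 25.9 and 19.7 and 57.7, 37.01 and 40.5 CPM (log2 fold change 0.95 ± 0.17 SE, edgeR adjusted p = 0.00832), and Rgs5, a pericyte gene, had 206, 179.8 and 153 and 286, 235 and 259.9 CPM (log2 fold change 0.53 ± 0.10 SE, edgeR adjusted p = 0.00979). Gli1 (1.44 ± 0.33) and Pdgfrb (0.74 ± 0.20) were also called higher. The call of Mgp ended when any 1 of CTRL replicate 2 and 5 DPA replicate 1 was left out (edgeR adjusted p 0.0587 to 0.07302). The call of Gli1 ended when any 1 of CTRL replicate 2 and 5 DPA replicates 1 and 3 was left out (edgeR adjusted p 0.0526 to 0.0878). The call of Pdgfrb ended when any 1 library other than CTRL replicate 1 was left out (edgeR adjusted p 0.0512 to 0.169). The count was 2 without CTRL replicate 2 or 5 DPA replicate 1 and 3 without 5 DPA replicate 3. edgeR called 0 of 12 endothelial genes (3 by the unadjusted p under 0.05, 2 by DESeq2, 0 by limma-voom; median log2 fold change 0.16; 3 by edgeR without CTRL replicate 1, and 1 without 5 DPA replicate 2) and 0 of 19 genes of TGF-beta, activin and BMP signalling (6 by the unadjusted p under 0.05, 4 by DESeq2, 1 by limma-voom; median 0.31; 3 by edgeR without CTRL replicate 1, and 1 without 1 DPA replicate 1 or 2).

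**Figure D4:**
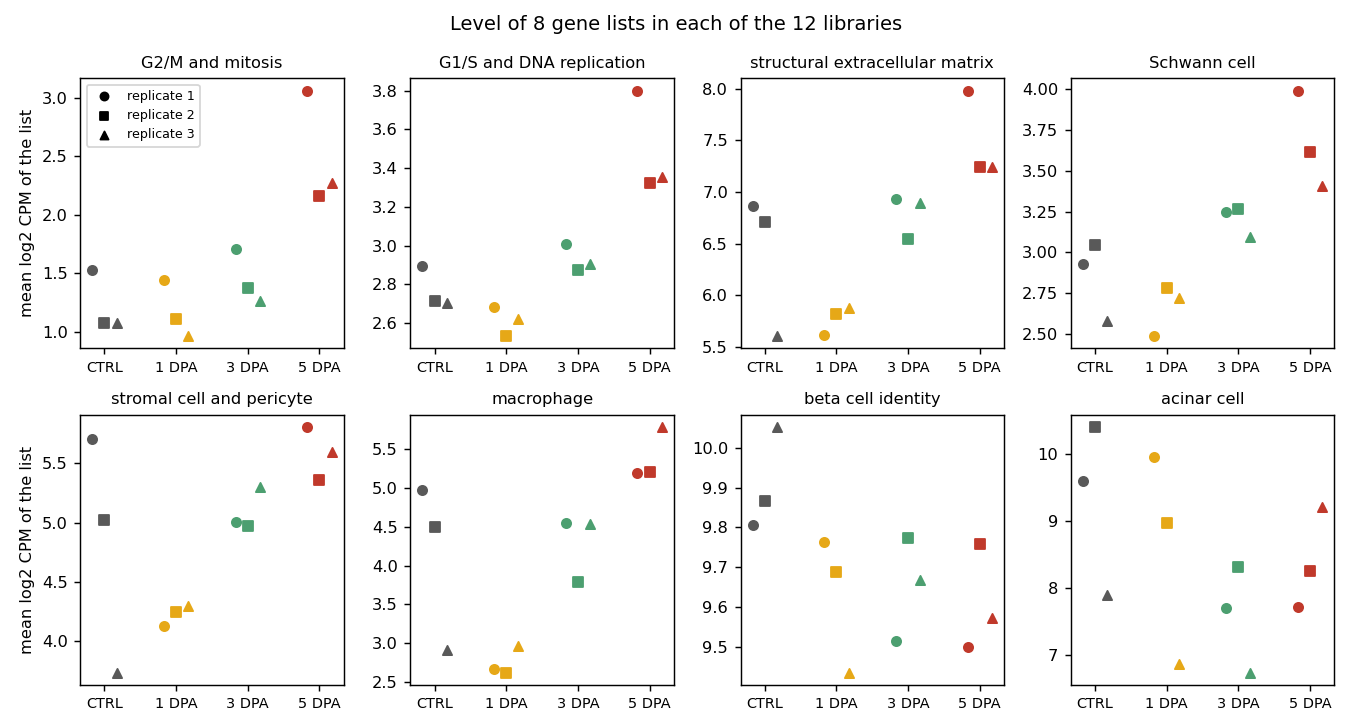
Mean log2 CPM (y axis, its own range in each panel) of 8 gene lists in each of the 12 libraries; the x axis gives the group and the marker shape the replicate. The 5 DPA libraries lie above all CTRL libraries for mitosis, DNA replication, matrix, Schwann cell and macrophage genes, overlap them for stromal and acinar genes, and lie below them for beta cell genes; CTRL replicate 3 is low for matrix, stromal and macrophage genes.

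Exocrine genes were not called, and their libraries spread widely. edgeR called 0 of 20 acinar genes (0 by the unadjusted p under 0.05, 0 by DESeq2, 0 by limma-voom), with a median log2 fold change of -1.13 and summed levels of 12102 to 75661 CPM in CTRL and 9288 to 32839 CPM at 5 DPA. It called 0 of 10 duct genes (2 by the unadjusted p under 0.05, 1 by DESeq2, 1 by limma-voom; 1 by edgeR without CTRL replicate 1) and 0 of 6 tested genes of the REG family, secreted proteins of pancreatic injury (0 by the unadjusted p under 0.05, 0 by DESeq2, 0 by limma-voom). With the acinar score as a covariate 19 of the 32 mitosis genes were called.

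The largest rises by the naming rule include genes nearly silent in control islets. Of the 1016 genes that rose, 399 averaged under 1 CPM in CTRL, 153 had 3 or fewer counts over the 3 CTRL libraries and 77 had none; 241 tested genes had 3 or fewer such counts, and they passed the filter on low counts through other groups. Hormad2, a meiotic chromosome protein gene, had 0 counts in CTRL and 1.31, 1.09 and 1.41 CPM at 5 DPA, at least 52.4-fold higher when the CTRL group as a whole is set at a floor of 3 counts. The histone gene Hist1h2ad had 0 and 0.171, 0.655 and 0.359 CPM, at least 16.5-fold higher. Otop1, a proton channel gene, had 2 counts in CTRL and 262 at 5 DPA, which gives a ratio of 118 (95% interval 32.3 to 977). Mc1r, the melanocortin receptor of pigment cells, had 1 and 160 counts, a ratio of 144 (25.4 to 5716), and Cfap53, a ciliary protein gene, had 2 and 193, a ratio of 86.7 (23.7 to 721). These intervals cover counting error only. edgeR called all 5, and the calls of Hormad2, Otop1, Mc1r and Cfap53 held in all 22 other settings. Of the 241 tested genes so low in CTRL, 153 rose. Such genes passed the filter through groups where they were high, so neither a call nor its hold in other settings is support. Mc1r overlaps Gm20388 on the same strand.

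Sec1, a fucosyltransferase gene, had 0.07797, 0 and 0.0887 CPM in CTRL and 7.51, 6.45 and 8.47 at 5 DPA (log2 fold change 6.99 ± 1.04 SE, edgeR adjusted p = 0.00582). Gys2, the liver form of glycogen synthase, had 0.104, 0 and 0.0887 and 5.13, 4.68 and 8.497 CPM (log2 fold change 6.51 ± 0.80 SE, edgeR adjusted p = 0.00218). Sprr1a, an injury-induced gene of epithelia and neurons, had 0.234, 0 and 0 and 4.14, 7.2 and 4.58 CPM (log2 fold change 6.13 ± 1.23 SE, edgeR adjusted p = 0.0176), with all control counts in replicate 1. The call of Sprr1a ended when any 1 of CTRL replicates 2 and 3 was left out (edgeR adjusted p 0.0622 to 0.06304). Gys2 and Sprr1a were not called with limma-voom, and Sec1 and Sprr1a were not called with the macrophage or the stromal score as a covariate.

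The largest falls were of another order. After Hbegf came Slitrk1, a neuronal adhesion gene, with 5.28, 5.95 and 13.5 CPM in CTRL and 3.84, 3.21 and 3.53 at 5 DPA (log2 fold change -1.23 ± 0.34 SE, edgeR adjusted p = 0.0473), and Adgrv1, a very large adhesion G protein-coupled receptor gene, with 14.5, 15 and 17.7 and 6.82, 8.11 and 7.86 CPM (log2 fold change -1.05 ± 0.13 SE, edgeR adjusted p = 0.00133). The call of Adgrv1 held in all 22 other settings. Kcng3, a modulatory potassium channel subunit, had 4.63, 4.23 and 5.9 and 1.92, 2.66 and 2.95 CPM (log2 fold change -0.97 ± 0.21 SE, edgeR adjusted p = 0.0171). Pclo, piccolo, a scaffold of secretory sites and a calcium sensor in insulin release, had 181, 205 and 236 and 104, 126 and 122 CPM (log2 fold change -0.82 ± 0.16 SE, edgeR adjusted p = 0.0128), and Trpm5, a cation channel of beta cells, had 114, 115 and 125 and 60.9, 84.7 and 68.6 CPM (log2 fold change -0.72 ± 0.12 SE, edgeR adjusted p = 0.00474). Edn2, Lingo3, Clip4 and Fras1 complete the 10, at -0.86, -0.84, -0.72 and -0.72 on the log2 scale. The call of Slitrk1 ended when any 1 library other than CTRL replicate 1 was left out (edgeR adjusted p 0.05103 to 0.142). The call of Kcng3 ended when any 1 of CTRL replicate 3 and 5 DPA replicate 1 was left out (edgeR adjusted p 0.0566 to 0.0752). The call of Pclo ended without 5 DPA replicate 1 (edgeR adjusted p = 0.06201). The call of Edn2 ended when any 1 library other than CTRL replicate 2 was left out (edgeR adjusted p 0.0515 to 0.188). The call of Lingo3 ended when any 1 of CTRL replicate 3 and 5 DPA replicates 1 and 2 was left out (edgeR adjusted p 0.0524 to 0.0975). The call of Clip4 ended when any 1 of CTRL replicate 3 and 5 DPA replicates 1 and 2 was left out (edgeR adjusted p 0.0576 to 0.112). The call of Fras1 ended without 5 DPA replicate 1 (edgeR adjusted p = 0.0506).

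**Figure D5:**
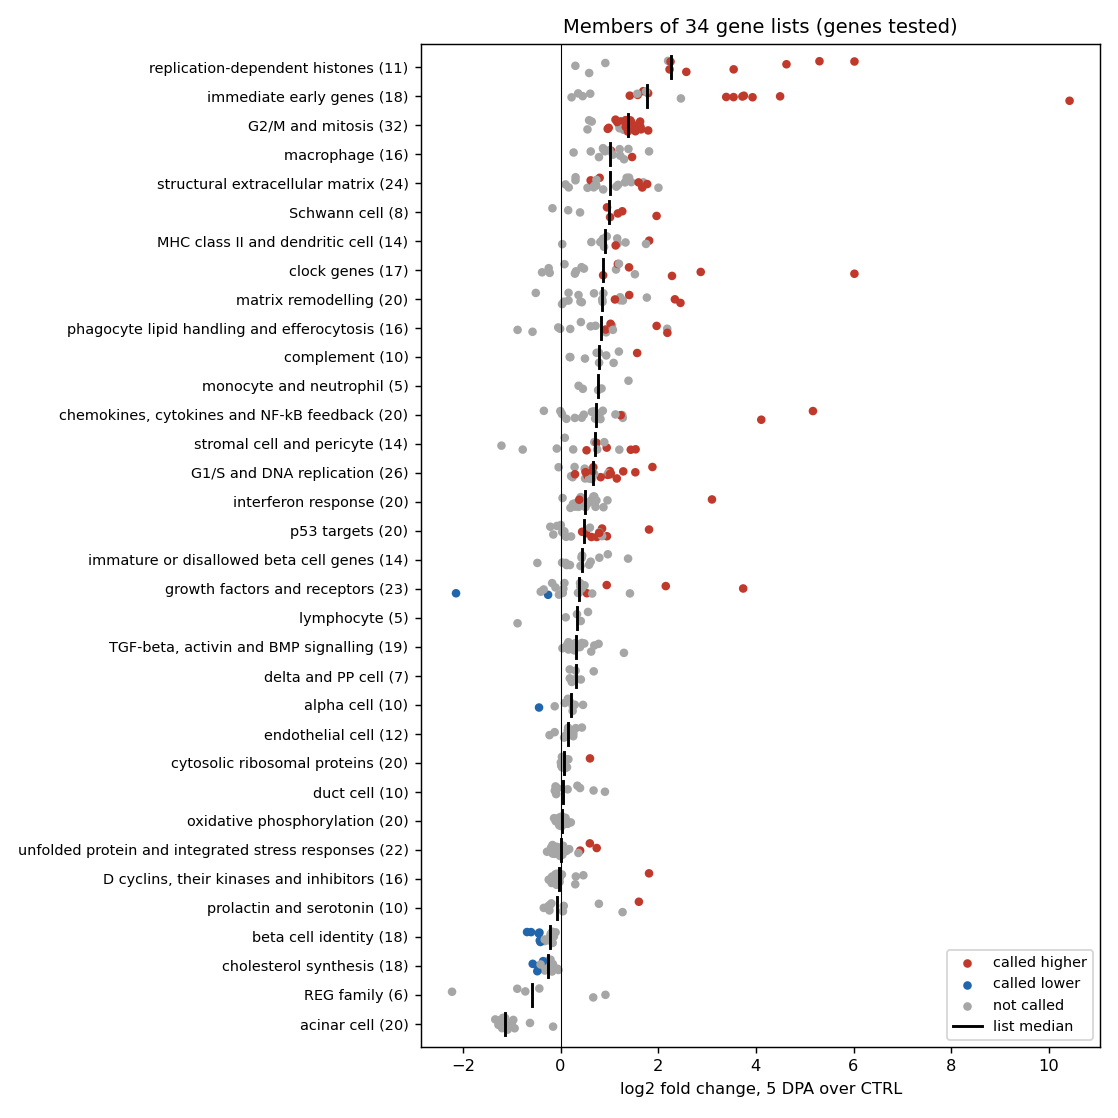
Log2 fold change at 5 DPA over CTRL (x axis) of every tested member of 34 gene lists (y axis, number tested in brackets), red if called higher, blue if called lower and grey if not called, with a black bar at the list median. Lists are ordered by median, from replication-dependent histones at 2.25 and immediate early genes at 1.77 at the top to acinar cell genes at -1.13 at the bottom; 25 of the 32 mitosis genes are red.

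Set against the earlier times, fewer genes separated 5 DPA from 3 DPA than from 1 DPA. Between 5 and 3 DPA 547 genes differed (3.16%), 122 higher at 5 DPA (0.705%) and 425 lower (2.46%), and 340 with the replicate number as a block. Between 5 and 1 DPA 9703 differed (56.1%), 4551 higher at 5 DPA (26.3%) and 5152 lower (29.8%). These comparisons share the 5 DPA libraries with that against CTRL. Of the 32 mitosis genes 12 were higher at 5 than at 3 DPA, and 16 with the block; they include Mki67 (1.57 ± 0.35 SE, edgeR adjusted p = 0.04004), Top2a (1.52 ± 0.33 SE, edgeR adjusted p = 0.0366) and Cdk1 (1.70 ± 0.34 SE, edgeR adjusted p = 0.0247). Mki67 had 6.75, 5.38 and 2.82 CPM at 1 DPA and 7.79, 8.52 and 6.32 at 3 DPA, so that its 5 DPA libraries lay above all 9 others. Of the 26 DNA replication genes 9 were higher at 5 than at 3 DPA. Against 1 DPA 26 mitosis genes were higher and 1, Mybl2, was lower. The difference between 5 and 3 DPA rested on single libraries: 31 to 70 genes differed without any 1 of the 5 DPA libraries or without 3 DPA replicate 1, 186 to 347 without 3 DPA replicate 2, 3 DPA replicate 3, CTRL replicate 2 or 1 DPA replicate 2, and 1018 without CTRL replicate 3.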

How the data were processed

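RNA from islets, extracted with the RNeasy Mini kit and made into QIAseq stranded mRNA libraries per the labels' protocols, was analysed as the raw gene counts that the authors deposited, 1 column of counts for each of the 12 libraries. Per the submitters' processing notes the build is mm10. The aligner, counter, annotation and use of strand were not given in the sources used here. The other 36 per-sample columns of the table hold normalized values and were not used.

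Counts were tested with edgeR 4.0.16 in R 4.3.3 (TMM scaling, filterByExpr with a minimum count of 10, robust quasi-likelihood fit of 1 mean per group over all 12 libraries). The call threshold was a Benjamini-Hochberg adjusted p of 0.05 over all genes tested; each SE is the size of the log2 fold change divided by the square root of F. CPM are TMM-scaled, and list scores are mean log2 CPM with a prior count of 2. Alternatives used DESeq2 1.42.0, limma 3.58.1 (voom), other scalings and filters, a replicate block, marker scores as covariates, and each library left out in turn. The edgeR script was checked on simulated counts. No 2 libraries of a group agreed within sampling noise (chi-square per degree of freedom 47.2 to 229). No label says whether libraries are separate animals, so p-values measure the spread between these libraries, which may be technical.

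The named genes are the 10 largest rises and 10 largest falls among called genes whose groups do not overlap and whose log2 CPM averages 1 or more (predicted genes and genes named by a clone excepted), the called genes of smallest p in each of 34 lists (3 at most), and a fixed set of genes (Cdkn1a, Hbegf, Igf2, Mki67 and Top2a, the beta cell genes Mafa, Pdx1 and Slc2a2, and the hormone genes Gcg, Ins1, Ins2, Ppy and Sst). Some genes of the lists are not reported here. Other list members were chosen after their values were seen. The comparison, the members of the lists and the rules were chosen with earlier results of these data known. Replicate numbers in the labels were checked as pairs by the correlation of same-numbered libraries' deviations from their group means. These were -0.11, -0.11 and -0.47 between 5 DPA and CTRL and 0.16, 0.19 and 0.33 between 5 and 3 DPA. The numbers were thus taken to pair the samples only between 5 and 3 DPA, and that pairing comes from the data, not from the labels. The block fit still covered all 12 libraries and set CTRL and 1 DPA libraries in the same blocks by number. Its values are therefore not a paired test of 5 against 3 DPA alone. Gene positions and lengths are from GENCODE M21 (17257 of 17294 genes matched), and promoter windows from RefSeq on GRCm38.p6; none on chromosome 18 was printed.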

Additional observations from a re-analysis of the deposited data

Results flagged for a closer look

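For 67 values of the named genes that changed against CTRL, the level at 5 DPA also differed from that at an earlier time by edgeR's test of the difference itself; 20 are against 3 DPA and 47 against 1 DPA. All values are log2 fold changes of 5 DPA over the earlier time.

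Against 3 DPA, cell cycle genes were higher at 5 DPA: Top2a by 1.52, Prc1 by 0.94, Mcm5 by 1.01 and Pcna by 0.49. Macrophage, phagocyte and pericyte genes were higher too, with 1.27 for Trem2, 1.01 for Ctsd, 0.95 for Cx3cr1, 1.09 for Ms4a7 and 0.42 for Rgs5. Genes of the p53 and stress responses were lower, with -1.12 for Cdkn1a, -0.80 for Bax, -0.67 for Aen and -0.67 for Ddit3. So were the immediate early genes Egr4 (-1.90) and Nr4a2 (-1.30) and the histone genes Hist1h3b (-1.54), Hist1h2ac (-1.52) and Hist1h2ad (-2.67). Hormad2 changed by -1.67 and Gys2 by -2.27. With the replicate number as a block, 6 of the 20 were not called: Cdkn1a (adjusted p = 0.0921), Hist1h2ad (0.0598), Hormad2 (0.06002), Ms4a7 (0.0727), Nr4a2 (0.0686) and Rgs5 (0.0518).

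Against 1 DPA, cell cycle genes stood at 2.28 (Top2a), 1.06 (Prc1), 2.02 (Mcm5) and 0.95 (Pcna), and histone genes at -2.22 (Hist1h3b) and -4.39 (Hist1h2ad). Macrophage and phagocyte genes stood at 2.65 (Trem2), 1.69 (Ctsd), 2.02 (Cx3cr1), 2.67 (Ms4a7), 2.39 (C3ar1), 2.97 (Itgax), 3.57 (Lgals3) and 3.37 (Mmp12). Matrix and stromal genes stood at 1.17 (Col15a1), 2.30 (Col18a1), 2.49 (Col5a2), 1.91 (Mgp), 1.5 (Thy1) and 0.83 (Rgs5). Schwann cell genes stood at 1.15 (Foxd3), 1.34 (Gfap) and 2.31 (Ngfr).

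Cytokine genes differed from 1 DPA by 3.42 (Cxcl1), 5.78 (Cxcl2), 3.54 (Cxcl10) and -1.17 (Nfkbia). Immediate early and clock genes differed by 2.11 (Egr1), 3.28 (Egr4), -1.73 (Nr4a2), -2.16 (Nr1d1) and -2.49 (Nfil3). Stress and p53 genes differed by -1.67 (Aen), -0.79 (Atf4), -1.13 (Ddit3) and -1.03 (Ppp1r15a). Growth factor genes differed by -2.35 (Igf2), -2.54 (Igf2os) and 2.62 (Btc). Genes that fell against CTRL differed by -0.55 (Adgrv1), -0.96 (Kcng3), -0.47 (Pclo), 0.61 (Slc2a2) and -0.44 (Srebf2). The low-level genes Hormad2, Mc1r and Cfap53 differed by -1.31, -2.24 and -1.58.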

How the results depend on the processing

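None of the 1477 genes called between 5 DPA and CTRL had the opposite sign in any of the 22 other settings that gave it a value (Hist1h2ad, for one, had a value in 21); of the 78 named genes called, 18 kept their call in all of them and 46 kept it without any 1 library. The count of 1477 was 2400 with DESeq2, 622 with only the 2 groups fitted, 186 with the macrophage and 534 with the stromal score as a covariate, and 462 (without 5 DPA replicate 1) to 2137 (without CTRL replicate 1) with 1 library left out. In the same order, the 1016 rises were 1545, 418, 153 and 443, and 405 to 1330. The 461 falls were 855, 204, 33 and 91, and 57 to 807, with 289 under library sizes without the 50 most abundant genes and 307 without a filter. The 547 genes between 5 and 3 DPA were 1177 with DESeq2, 899 with only the 2 groups, 239 with the acinar, 207 with the macrophage and 239 with the stromal score, and 31 to 1018 with 1 library left out. The 9703 genes between 5 and 1 DPA were 3184 with the macrophage and 5251 with the stromal score. The cause of these shifts was not tested. With the replicate number as a block, 1330 genes differed from CTRL and 340 between 5 and 3 DPA; the pairing between 5 and 3 DPA comes from the data, and 5 DPA and CTRL libraries share only numbers. The difference in the insulin share (-0.688 percentage points, 5 DPA minus CTRL) ranged from -2.27 without 5 DPA replicate 2 to 0.219 without 5 DPA replicate 3, and was also above 0 without CTRL replicate 3 (0.0773). The difference in the acinar share (-2.22) was -0.812 without CTRL replicate 2 and -3.73 without CTRL replicate 3. Each of these moves was smaller than the larger of the 2 group SDs, but not always than the smaller. The mitochondrial difference (-0.437) stayed between -0.516 and -0.356. Depth limits genes with few counts in CTRL, whose folds are bounds or ratios with wide intervals.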

Other observations

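Genes that fell at 5 DPA were longer than those that rose, a pattern looked at after seeing the data. The median transcript length was 5918 bases for genes called lower, 2953.5 for genes called higher and 3194 for all genes tested with a length. Of the 1726 genes in the longest 10% (6591 bases or more), 11.8% were called lower and 4.17% higher, with a median log2 fold change of -0.09. Of the 1727 in the shortest 10% (1268 bases or fewer), 0.579% were called lower and 7.76% higher, with a median of 0.06. Against the mean of the CTRL libraries, the median of the longest 10% stood at -0.08, -0.11 and -0.06 in 5 DPA replicates 1 to 3 and at -0.07, 0.02 and 0.05 in CTRL replicates 1 to 3 (log2). CTRL replicate 1 thus lay within the range of the 5 DPA libraries. The part of transcript length in the falls was not tested.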
